A study of Mus musculus with 6 samples.

Results

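The 10 chemokine ligand genes Ccl3, Ccl4, Ccl5, Ccl17, Ccl22, Cx3cl1, Cxcl9, Cxcl10, Cxcl13 and Cxcl16 were followed in sorted peritoneal cavity (PC) B1a cells. They are 10 of the 36163 genes named on the array, and were found by name among its non-control probes, which gave 12 probes. The list was chosen by the measured genotype differences of these same arrays (the signals and background flags of knockout against control), so the differences of its members are given as a description, and a count of members past a threshold is no test of them. The study compared the transcripts of PC B1a cells, the CD5+ B cells of the body cavities, between 2 genotypes of 7-week-old female mice on the C57Bl/6 background. The 3 knockout arrays held RNA from p40-/-CD25-/- mice, which lack both the p40 chain shared by IL-12 and IL-23 and the alpha chain of the IL-2 receptor, called CD25 or IL-2Ra. The 3 control arrays held RNA from p40-/-CD25+/- mice, which also lack p40 and keep 1 working CD25 allele, so that no array shows cells with p40. Both deletions are carried in the germ line and are not limited to B cells, and by the design text the cells of at least 3 mice went into every sample.

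Chemokines are small secreted proteins that direct the movement of leukocytes by binding to G protein-coupled receptors on the responding cell. Their families are named for the spacing of the first cysteines, as CC, CXC and CX3C. Activated B cells can secrete CC chemokines such as CCL3, CCL4, CCL17 and CCL22, which draw T cells and antigen-presenting cells, and CXCL13, made by stromal cells and peritoneal macrophages, draws B1 cells into the body cavities.

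Of the 10 ligands, 6 were measured well above the local background on all 6 arrays, and 3 of these (Ccl5, Ccl17 and Cx3cl1) were at least 2-fold higher in knockout cells with groups that did not overlap. Of all genes tested, 2.26% passed the 2-fold thresholds as higher (2-fold or more with a limma p of 0.05 or less before adjustment) and 14.7% were higher without overlap, and since the list was chosen on this contrast nothing is read from the count. Ccl3, Ccl4 and Cxcl13 varied so much within a genotype that the groups overlapped. Cxcl9, Cxcl10 and Cxcl16 were well above background on some arrays only, and Ccl22 on none. Values are log2 of the processed signal minus the 75th percentile of the array, so that 0 is the 75th percentile. They can be set against each other between arrays for 1 probe, but not between probes.

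Several of the genes lie side by side in the genome. Ccl22, Cx3cl1 and Ccl17 are direct neighbours on chromosome 8 in the RefSeq gene order. By the mm9 coordinates of the array files their probes lie at chr8:97274709-97274768, chr8:97306185-97306244 and chr8:97335770-97335829, with 31476 and 29585 bases between probe starts. Ccl3 at chr11:83461358-83461417 and Ccl4 at chr11:83478052-83478111 are neighbours with 16694 bases between probe starts, and the Ccl5 probe at chr11:83339296-83339355 starts 122062 bases before that of Ccl3. The Cxcl9 probes at chr5:92752191-92752250 and chr5:92752796-92752855 and the Cxcl10 probes at chr5:92775781-92775840 and chr5:92776616-92776675 have 1 gene, Art3, between them. Cxcl13 at chr5:96389861-96389920 and Cxcl16 at chr11:70267780-70267839 stand apart from the other members.

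Of the 3 neighbours on chromosome 8, Ccl17 and Cx3cl1 were higher in knockout cells, and Ccl22 was not well above background on any array. The 250 bases before their start sites are shown, together with those of Cxcl10, an interferon-induced gene that was near background. The sequences are from RefSeq (GRCm38.p6), written 5′ to 3′ on the strand of the gene, and the table used here held 7 of the 10 members. Capitals mark matches to 4 strings searched on both strands: GGGNNTTCC (NF-kB-like), TTCNNNGAA (GAS-like, the form bound by several STAT factors), TTCNNNNGAA (STAT6-like) and GAAANNGAAA (ISRE-like, the interferon-stimulated response element). The GAS-like and STAT6-like strings read the same on both strands and differ only in the length of their spacer.
Ccl22, chr8:94745434-94745683, plus strand: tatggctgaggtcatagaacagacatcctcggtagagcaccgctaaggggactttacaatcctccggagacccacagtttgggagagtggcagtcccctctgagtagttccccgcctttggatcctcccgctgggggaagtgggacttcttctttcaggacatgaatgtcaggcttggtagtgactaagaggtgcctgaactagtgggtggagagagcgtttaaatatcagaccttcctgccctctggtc
Cx3cl1, chr8:94771930-94772179, plus strand: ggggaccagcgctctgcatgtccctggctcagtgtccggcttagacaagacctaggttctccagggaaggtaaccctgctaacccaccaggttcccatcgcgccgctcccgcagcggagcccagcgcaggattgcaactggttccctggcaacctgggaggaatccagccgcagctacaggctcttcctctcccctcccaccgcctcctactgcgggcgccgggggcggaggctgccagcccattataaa
Ccl17, chr8:94810203-94810452, plus strand: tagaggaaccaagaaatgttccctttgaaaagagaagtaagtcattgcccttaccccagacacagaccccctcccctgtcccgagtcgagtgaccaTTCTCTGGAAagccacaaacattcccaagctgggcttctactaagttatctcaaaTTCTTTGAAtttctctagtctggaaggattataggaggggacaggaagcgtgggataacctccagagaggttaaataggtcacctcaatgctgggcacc
Cxcl10, chr5:92348890-92349139, minus strand: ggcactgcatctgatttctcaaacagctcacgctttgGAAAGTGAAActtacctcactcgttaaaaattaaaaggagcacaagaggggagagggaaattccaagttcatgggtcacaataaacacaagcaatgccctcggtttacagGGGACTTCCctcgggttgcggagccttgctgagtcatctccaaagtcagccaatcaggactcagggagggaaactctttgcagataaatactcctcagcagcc

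Ccl17 held a STAT6-like match, TTCTCTGGAA, from 154 to 145 bases before its start and a GAS-like match, TTCTTTGAA, from 99 to 91 bases before it. Its neighbours Ccl22 and Cx3cl1 held no match in this window, nor did Ccl3 and Cxcl13. Cxcl10 held an ISRE-like match, GAAAGTGAAA, 213 to 204 bases before its start and an NF-kB-like match, GGGACTTCC, 103 to 95 bases before it, and Cxcl9 held 2 NF-kB-like matches, GGGTTTTCC and GGGATTTCC. Among all 32851 windows of this length, 4.98% held an NF-kB-like, 7.02% a GAS-like, 5.85% a STAT6-like and 2.98% an ISRE-like string. A match describes the letters and not a bound site.

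The arrays differed in brightness, which sets what a dim probe can show. The 75th percentile of the processed signal ranged from 252 to 272 in control and from 66.5 to 162 in knockout arrays, lowest on knockout 2, and 47.2% to 50.6% of control spots and 39.7% to 45.9% of knockout spots were well above background. Probes that were well above background on no array sat higher on the knockout arrays after scaling, by a median of 1.19 log2 units over 24884 probes, and 70.7% of them had all 3 knockout values above all 3 control values. The 6 arrays share a single slide and a single scan. The B cell markers Cd79a, Cd79b, Ms4a1, Pax5 and Cd22 and the sort markers Cd5 and Itgam (CD11b) were well above background on every array. For the deleted genes, Il2ra read 1.62, 1.13 and 1.35 in control cells and -0.31, -0.59 and 0.86 in knockout cells, so that every knockout array was lower and knockout 3 lay nearest to the controls. Its difference was -1.38 (SE 0.37, limma adjusted p = 0.122), and Il12b, which encodes p40, differed by -0.02, both probes being well above background on all 6 arrays.

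Ccl5 encodes CCL5 (RANTES), a CC ligand that draws T cells and monocytes. Its processed signal was 196, 49.8 and 87.5 on control arrays 1 to 3 and 315, 435 and 3015 on knockout arrays 1 to 3. On the scaled log2 axis these were -0.43, -2.34 and -1.63 in control cells and 1.27, 2.71 and 4.22 in knockout cells. Every knockout array was above every control array, and the knockout values spanned 2.96 log2 units. The means were -1.47 ± 0.97 (SD, n = 3) and 2.73 ± 1.48 (SD, n = 3), a difference of 4.20 log2 units (SE 1.02) or 18.4-fold. The difference stayed between 3.46 and 4.93 when any 1 array was left out, the lowest value being that without knockout 3, the knockout array with the highest Il2ra. With normexp background correction it was 3.28 after quantile normalization and 3.23 after scaling on the 75th percentile.

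Markers of other cell types were read beside Ccl5. Of 10 T cell markers, 6 to 7 were well above background on each control array and 7, 7 and 9 on knockout arrays 1 to 3. The T cell receptor chain gene Cd3d was at -2.10, -3.30 and -2.78 in control cells and at -2.54, -1.14 and -0.28 in knockout cells, a difference of 1.41 (limma adjusted p = 0.188) that passed the 2-fold thresholds. Of the other T cell markers measured on all 6 arrays, Cd3e differed by 0.60, Lck by 0.48, Cd4 by 0.33, Cd2 by -0.15 and Cd3g by -0.28, and none passed the 2-fold thresholds. Lat, well above background on 2 control and 3 knockout arrays, differed by 1.19 (limma adjusted p = 0.306). Cd8a and Cd8b1, which encode the chains of CD8, were well above background on knockout 3 alone, the array with the highest Ccl5, and Themis on none. The summed linear level of the 10 T cell markers ranged from 268 to 282 times the 75th percentile in control cells and from 222 to 303 in knockout cells. Such a sum follows its brightest probe, here Cd2, which read 7.69 to 8.16 over the 6 arrays. It does not show the level of the dimmer T cell markers. Of 7 NK cell markers, 4 were well above background on no array. Prf1, the only NK cell marker well above it on all 6 arrays, differed by 0.15 (limma adjusted p = 0.635). Gzma was well above it on 2 control and 3 knockout arrays and differed by 1.44 (limma adjusted p = 0.233), and Eomes was on knockout 3 alone. The summed level of the 7, which mainly follows Prf1, was 0.61 to 0.77 in control and 0.79 to 1.13 in knockout cells. Whether these cells had a part in the Ccl5 values was not tested, and in bulk RNA more cells of a type and more RNA per cell cannot be told apart.

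Ccl17 encodes CCL17 (TARC), a ligand of CCR4 that draws Th2 and regulatory T cells. Its probe read -0.72, -0.27 and -0.45 in control cells and 0.83, 1.79 and 1.68 in knockout cells. The groups were separated by 1 log2 unit or more, and the control arrays lay within 0.45 of each other. The means were -0.48 ± 0.22 (SD, n = 3) and 1.43 ± 0.53 (SD, n = 3), a difference of 1.91 log2 units (SE 0.33) or 3.77-fold, which ranged from 1.74 to 2.22 when 1 array was left out. Dendritic cells are a known source of CCL17, and of 7 dendritic cell markers Xcr1 and Clec9a were well above background on no array and Zbtb46 on knockout 3 only. Cd209a was well above background on 2 control arrays and no knockout array, Itgax on 2 control arrays and 1 knockout array, and Flt3 on 1 control array. The summed level of all 7 was 61.4 to 66.7 in control cells and 72.1 to 127 in knockout cells, a sum that follows Siglech, a plasmacytoid dendritic cell marker measured on all 6 arrays (difference 0.50, limma adjusted p = 0.214). Its part in the Ccl17 values was not tested.

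Ccl22 encodes the other ligand of CCR4 and lies next to Cx3cl1. Its probe was not well above background on any array, and its processed signals were 2.46, 2.32 and 3.54 in control cells and 4.10, 2.58 and 3.12 in knockout cells. After scaling these became -6.75, -6.77 and -6.26 against -5.00, -4.69 and -5.69, which lay near the median of all probes not well above background on the same arrays (-6.65, -6.71 and -6.21 against -5.47, -4.62 and -5.86). The scaled values did not overlap, with a difference of 1.47, but no fold is given for a probe that was undetected in both genotypes. Quantile normalization alone put the difference at 0.41, and 0.04 remained when normexp correction preceded it.

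Cx3cl1 encodes fractalkine, a membrane-bound chemokine that is shed by ADAM10 and ADAM17 and binds CX3CR1 on monocytes, NK cells and T cells. Its processed signals were 124, 61.8 and 81.5 in control cells and 131, 47.7 and 170 in knockout cells. These signals overlapped, and knockout 2 was the lowest of all arrays. After scaling the probe read -1.09, -2.03 and -1.74 in control cells and 0.00, -0.48 and 0.08 in knockout cells. The scaled knockout values lay close together, and all were above the highest control value, that of control 1. The separation of the groups thus rests on the scaling. The means were -1.62 ± 0.48 (SD, n = 3) and -0.13 ± 0.30 (SD, n = 3), and the difference was 1.49 log2 units (SE 0.33) or 2.80-fold. Leaving out 1 array gave 1.28 to 1.75, and normexp background correction with quantile normalization gave 0.80, which is below 2-fold.

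**Figure D1:**
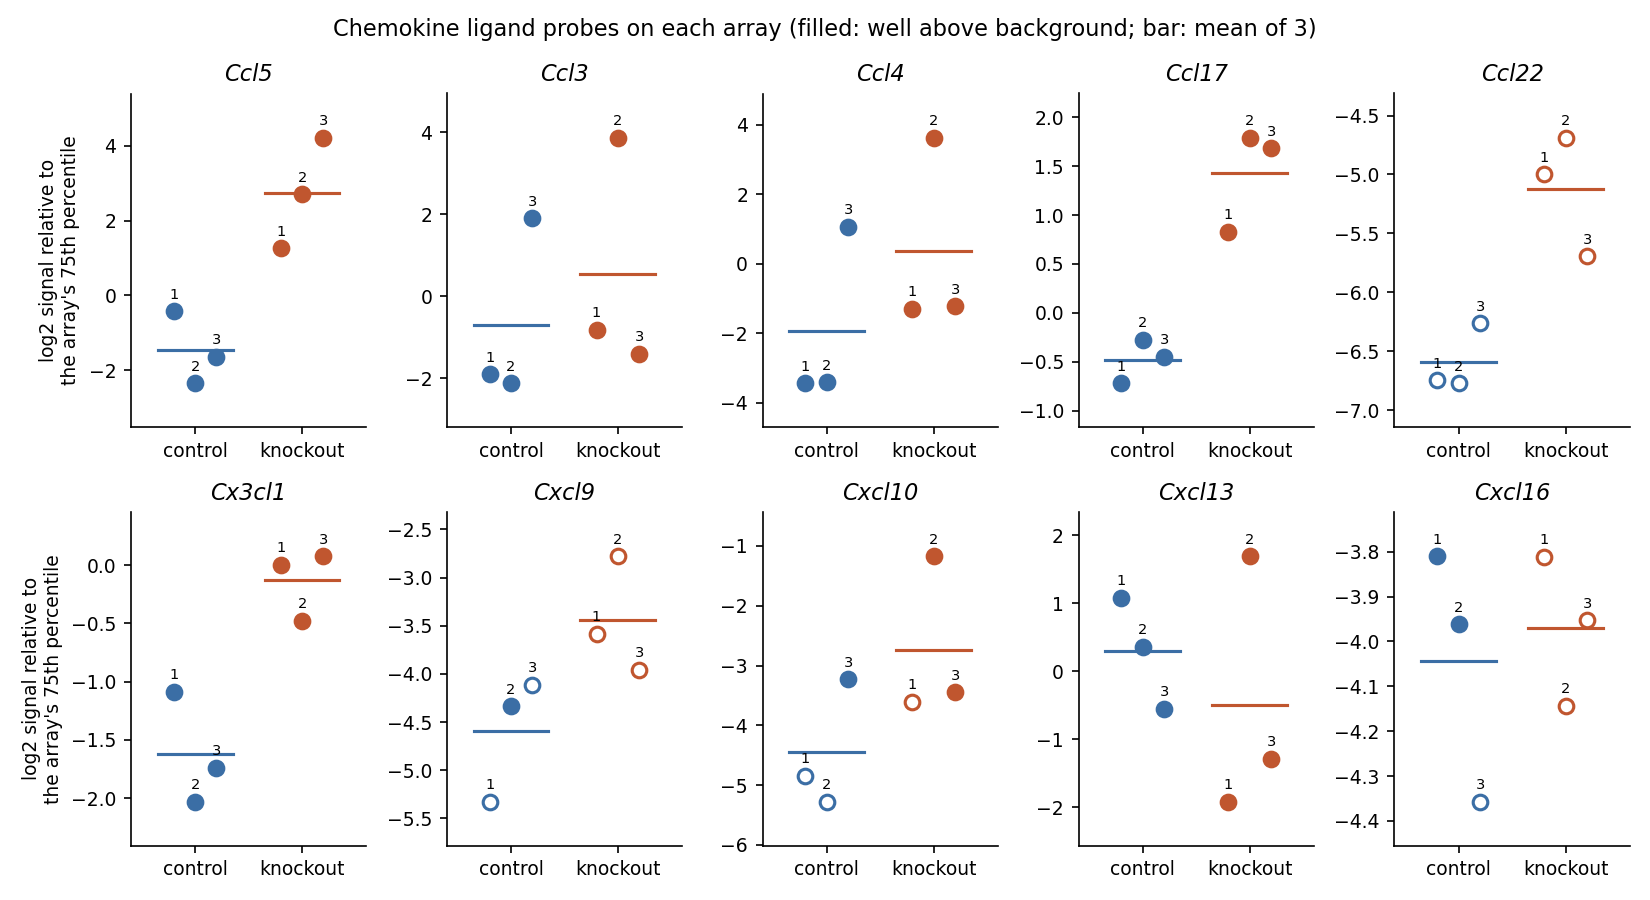
Log2 signal relative to the 75th percentile of the array (vertical axis, own range for each gene) on the 3 control and 3 knockout arrays for the 10 ligands, with the brighter probe for Cxcl9 and Cxcl10. Numbers are the array replicates, filled points are well above background, hollow points are not, and bars are means of 3 arrays. The knockout points of Ccl5, Ccl17 and Cx3cl1 are filled and lie above all control points, Ccl3 and Ccl4 are highest on knockout 2, and Ccl22 is hollow throughout.

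Ccl3 and Ccl4 encode the CC ligands MIP-1 alpha and MIP-1 beta, which are released by B cells after antigen receptor stimulation. Ccl3 read -1.90, -2.11 and 1.90 in control cells and -0.82, 3.87 and -1.40 in knockout cells. Ccl4 read -3.43, -3.41 and 1.07 in control cells and -1.30, 3.62 and -1.22 in knockout cells. In both genes knockout 2 was the highest array and control 3 the second highest, so that each genotype had 1 high array and the groups overlapped. The mean of Ccl3 was -0.70 ± 2.26 (SD, n = 3) in control and 0.55 ± 2.89 (SD, n = 3) in knockout cells, a difference of 1.25 log2 units with an SE of 2.12. For Ccl4 the means were -1.92 ± 2.59 (SD, n = 3) and 0.37 ± 2.82 (SD, n = 3), a difference of 2.29 with an SE of 2.21. The spread within a genotype was as large as the difference in either case, and without knockout 2 the Ccl3 difference changed sign to -0.40 and that of Ccl4 fell to 0.66. Without control 3, the high control array, they were 2.56 and 3.79, and Ccl4 then passed the 2-fold thresholds. Control arrays 1 and 2 lay in 1 row of the slide and the other 4 arrays in the next. With the slide row as a block, an alternative added after the data were seen that in effect sets control 3 alone against the knockout arrays, the differences were -1.35 for Ccl3 and -0.70 for Ccl4, both turned in sign, whereas Ccl5 (4.37), Ccl17 (1.88) and Cx3cl1 (1.61) kept theirs.

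Cxcl13 encodes the ligand of CXCR5 that guides B cells into follicles and body cavities. It read 1.08, 0.36 and -0.55 in control cells and -1.91, 1.69 and -1.28 in knockout cells. Knockout 2 was the highest of all 6 arrays and the other knockout arrays were the lowest. The means were 0.30 ± 0.82 (SD, n = 3) and -0.50 ± 1.93 (SD, n = 3), a difference of -0.80 (SE 1.21), which ranged from -1.89 without knockout 2 to -0.09 without knockout 1 and was 0.05 with the slide row as a block. The summed level of 10 macrophage markers was 27.5, 21.8 and 15.0 in control cells and 12.3, 23.7 and 12.8 in knockout cells. Of these markers, 8 to 10 were well above background on the control arrays and 7 to 9 on the knockout arrays, and of those tested only Lyz2 passed the 2-fold thresholds, as lower (-1.08, limma adjusted p = 0.164). The part of macrophages in the Cxcl13 values was not tested.

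Cxcl16 encodes a transmembrane chemokine and scavenger receptor that binds CXCR6. Its probe was well above background on control 1 and 2 and on no knockout array, with values of -3.81, -3.96 and -4.36 against -3.81, -4.14 and -3.95. The values overlapped, and since the knockout arrays give only an upper bound, no fold or direction is given.

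Cxcl9 and Cxcl10 encode the interferon gamma-induced ligands of CXCR3, which draw activated T cells. The Cxcl10 probe for the RefSeq transcript was well above background on control 3, knockout 2 and knockout 3, with values of -4.84, -5.27 and -3.23 in control cells and -3.61, -1.17 and -3.45 in knockout cells. Knockout 2 again stood highest and control 3 next. The groups overlapped, and no fold is given, since 2 control arrays and 1 knockout array did not measure the probe above background. The other Cxcl10 probe, for the transcript AK156907, was not well above background on any array. For Cxcl9, 1 probe was well above background on control 2 alone, with -5.32, -4.34 and -4.11 against -3.58, -2.78 and -3.96, and the other on none. No fold is given for Cxcl9, since neither probe was well above background on any knockout array.

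Of the 10 ligands, 6 were among the genes tested and 3 passed the 2-fold thresholds (the fold and p limits of the study, 2-fold or more and 0.05 or less, here applied to limma's p before adjustment), all higher in knockout cells. Over the 18254 genes tested, 3.53% passed them in either direction and 2.26% as higher. None of the ligands passed a limma adjusted p of 0.05, which 0.0383% of genes (7 genes) did, and 25.1% of genes had an unadjusted p under 0.05. All 3 knockout arrays were above all 3 control arrays for 3 of these 6 ligands and for 14.7% of genes; all 3 were below for none of these ligands and for 21.6% of genes, so that 36.3% of genes had groups that did not overlap. The median difference over those 6 was 1.70 log2 units, and over all genes it was -0.12. The ligands were listed for these differences, so that these counts were in large part set by the choice, and nothing is read from them.

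**Figure D2:**
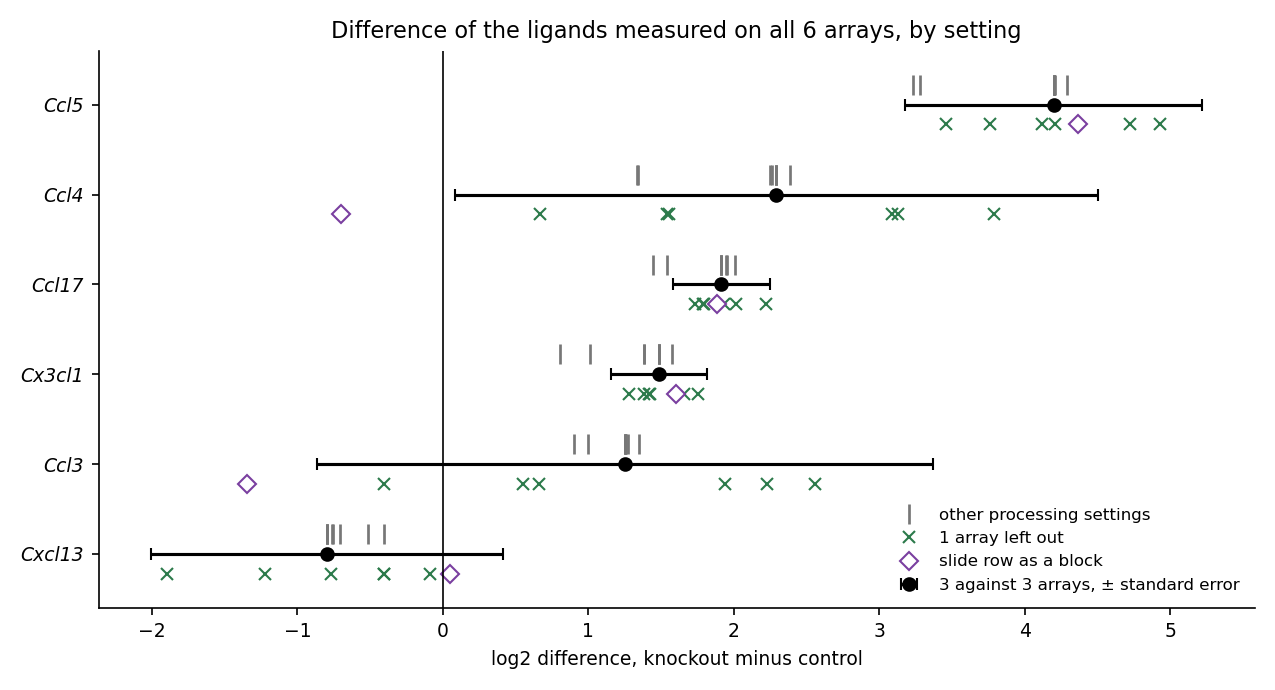
Log2 difference between knockout and control cells (horizontal axis) for the 6 ligands measured on all 6 arrays. Black points are the difference of 3 against 3 arrays with its standard error, grey ticks other normalizations and filters, crosses the values with 1 array left out, and diamonds the value with the slide row as a block. Ccl5, Ccl17 and Cx3cl1 stay to the right of 0 throughout, while Ccl3 lies on both sides, at 1.25 and at -0.40 without knockout 2.

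The genes nearest to a ligand in profile were ranked by the root mean square difference of values centred on each gene's mean over the 6 arrays, among 10832 genes with a symbol that were measured on all 6. Ccl3 and Ccl4 were each other's nearest gene, at 0.59, and next for both was Ccl2, at 0.91 and 1.13. Ccl2, which encodes the monocyte attractant MCP-1, read -2.58, -2.72 and -1.33 in control cells and -1.86, 3.16 and -2.62 in knockout cells, so that knockout 2 was again highest. Ccl7, the neighbour of Ccl2 on chromosome 11, was well above background on knockout 2 only.

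The nearest genes to Ccl5 were Thy1 at 1.19, Ms4a4b at 1.32 and Tbx21 at 1.41, none of them close relative to the 2.33 by which Ccl5 itself varied around its mean. Thy1 encodes a surface glycoprotein of T cells, and it read -2.14, -3.29 and -3.75 in control cells and -1.57, -1.73 and 0.51 in knockout cells. Tbx21, which encodes the transcription factor T-bet, read -2.73, -3.68 and -3.83 against -1.43, -1.91 and -1.08. All 3 had their highest value on knockout 3, as Ccl5 did, which the choice by profile in large part sets.

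The gene nearest to Ccl17 was Cxcr3, the receptor of Cxcl9 and Cxcl10, at 0.29, followed by Wfdc13 and Srrm2, both at 0.36. Cx3cl1 lay nearest to Myl4 at 0.15, Pikfyve at 0.18 and Laptm5 at 0.18, against a variation of its own of 0.81. Laptm5, a lysosomal protein of haematopoietic cells, read 2.91, 1.66 and 1.90 in control cells and 3.87, 3.62 and 3.71 in knockout cells.

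**Figure D3:**
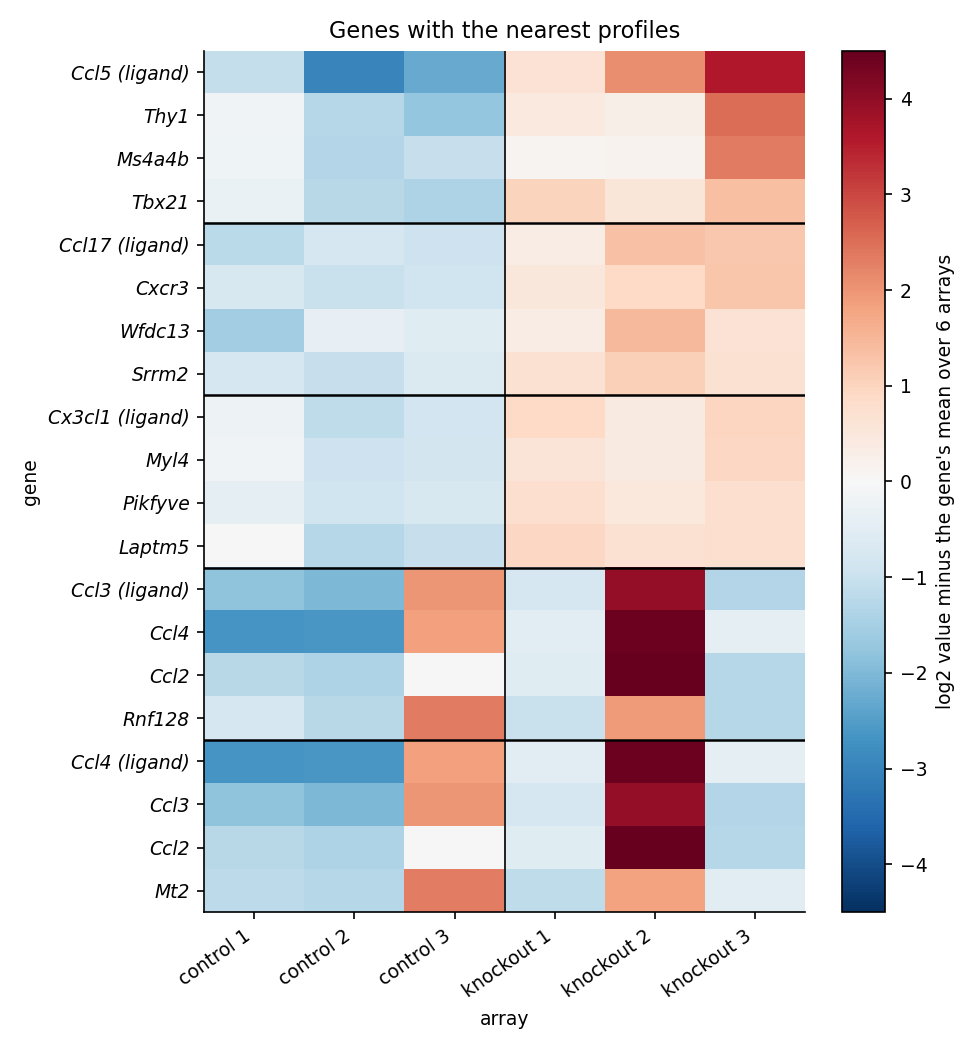
Values of 5 ligands and of the 3 genes nearest to each in profile (rows) on the 6 arrays (columns), as the log2 value minus the gene's mean over the arrays, red above and blue below it. Ccl3, Ccl4 and Ccl2 are darkest red on knockout 2, while Ccl5 rises most on knockout 3 and the Ccl17 and Cx3cl1 rows divide by genotype.

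Of 13 genes listed as signalling or atypical chemokine receptors, 7 were tested and 1 passed the 2-fold thresholds, which 3.53% of all genes tested did. Cxcr3 read -2.45, -2.73 and -2.63 in control cells and -1.22, -0.84 and -0.47 in knockout cells, so that the groups did not overlap. It was 1.76 log2 units higher in knockout cells (SE 0.21) or 3.39-fold, with a limma adjusted p = 0.062, which misses the 0.05 threshold. Over the alternatives its adjusted p ranged from 0.00164 to 0.39, being 0.045 with detection on all 6 arrays and 0.047 without knockout 3, and its difference was 0.76, below 2-fold, with normexp and quantile normalization. Cxcr5, the receptor of Cxcl13, differed by -0.09 (limma adjusted p = 0.707), and Cxcr6, the receptor of Cxcl16, by -0.29 (limma adjusted p = 0.289). Ccr4, the receptor of Ccl17 and Ccl22, and Ccr1 were not well above background on any array, Ccr3 on 1 control array, and Cx3cr1 on 1 array of each genotype. The atypical receptors Ackr2 and Ackr3, which bind chemokines without signalling through G proteins, differed by -0.07 and 0.15. The enzymes that shed or trim the ligands, Adam10 (-0.35), Adam17 (-0.52) and Dpp4 (-0.34), did not pass the thresholds, and their lowest limma adjusted p was 0.199.

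Of the 31 other chemokine ligands, 27 were on the array by name, 11 were tested and 13 were well above background on no array. Pf4, the platelet factor CXCL4, passed the 2-fold thresholds as lower, with 2.86 ± 0.70 (SD, n = 3) in control and 1.57 ± 0.54 (SD, n = 3) in knockout cells, a difference of -1.29 (SE 0.40, limma adjusted p = 0.136), which no longer passed without control 1 (-0.89), with the slide row as a block (-0.75) or by the methods' t-test. Cxcl11, at the brighter of its 2 probes, read 8.01, 8.16 and 8.10 in control cells and 8.87, 9.55 and 8.66 in knockout cells. Its difference of 0.94 (SE 0.24, limma adjusted p = 0.117) was below 2-fold, but it passed the 2-fold thresholds with scaling on the median (1.03), without knockout 1 (1.01) and without knockout 3 (1.12). It was lower with the mean of its probes (0.53), the deposited values (0.59), quantile normalization (0.60), normexp (0.61 and 0.62) and without knockout 2 (0.67). By sign 4 of the 11 were higher and 7 lower, with a median of -0.33, against -0.12 over all genes tested.

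Interferon gamma induces Cxcl9 and Cxcl10, and NF-kB factors act on many chemokine genes. All 16 interferon gamma-induced genes listed were tested, and Nlrc5, a regulator of MHC class I genes, passed the 2-fold thresholds with a difference of 1.16 (SE 0.18, limma adjusted p = 0.077). Its adjusted p ranged from 0.013 to 0.507 over the alternatives, and was 0.04 with normexp and quantile normalization, and it was below 2-fold (0.81) with normexp and the 75th percentile. By sign 11 of the 16 were higher and 5 lower, with a median of 0.16. Over all genes tested the median was -0.12, and 3.53% passed the 2-fold thresholds. Of 7 genes for NF-kB subunits and inhibitors 6 were tested and none passed, Nfkb1 being at 0.42 (limma adjusted p = 0.152), and their median was 0.06.

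**Figure D4:**
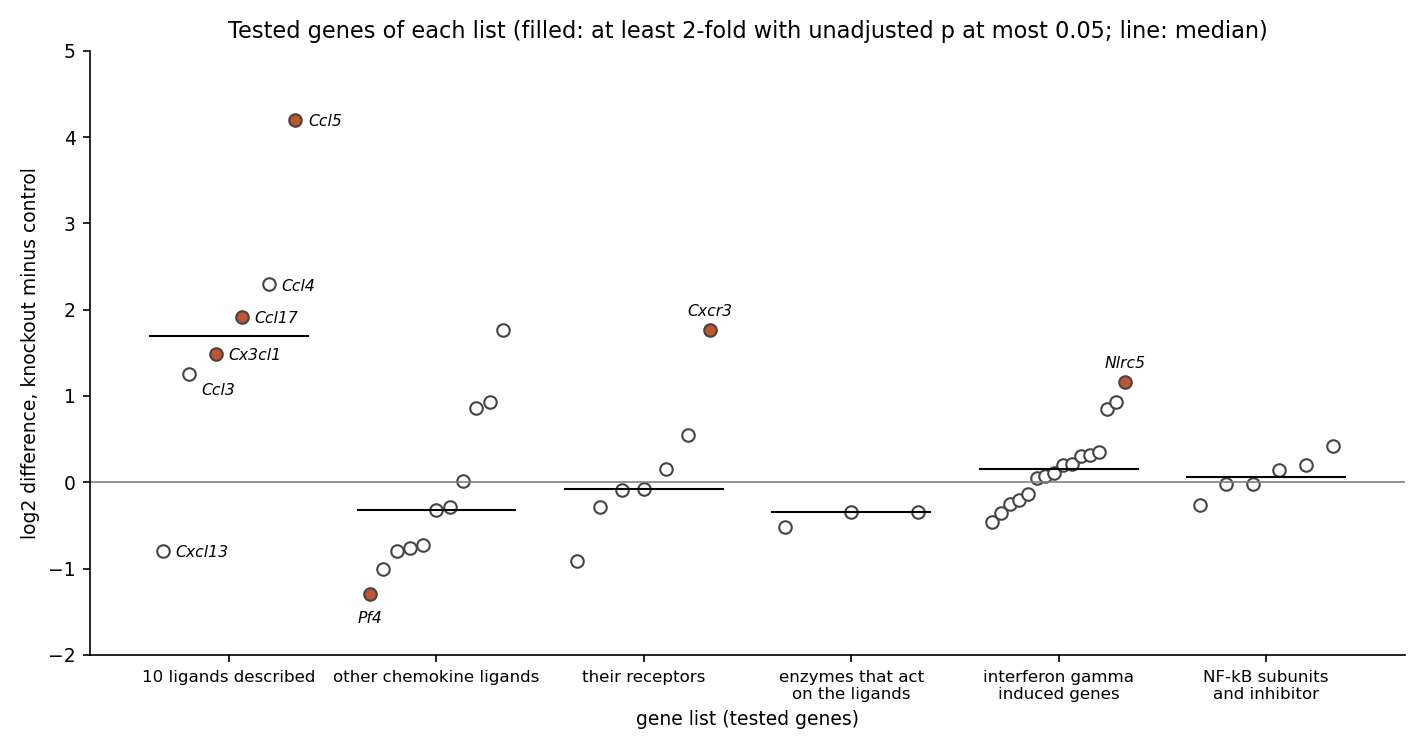
Log2 difference between knockout and control cells (vertical axis) of each tested gene, for the 10 ligands described and 5 other lists (horizontal axis). Filled points passed the 2-fold thresholds and lines are list medians. The ligands have a median of 1.70 from their 6 tested genes, while Cxcr3, Nlrc5 and Pf4 are the only filled points in the other lists.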

How the data were processed

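Cy3-labelled RNA of sorted PC B1a cells was measured on 1-colour Agilent arrays, a separate sample on each. The authors read the arrays with Agilent Feature Extraction 10.7.1.1 (named in the submitters' processing notes) and deposited, for each spot, the background-subtracted and detrended intensity, not scaled between arrays, with flags for background, saturation and outliers. They also deposited a table of log2 values of 55821 rows whose sorted columns differ by at most 0.000545, as after quantile normalization; it served as an alternative. No spot was saturated.

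Intensities were converted to log2 and shifted so that the 75th percentile of the 59305 non-control spots was 0. Outlier spots were dropped, and probes with several spots took their mean. A probe counted as well above background where more than a share of 0.5 of its spots carried that flag, and was tested where this held on all 3 arrays of at least 1 genotype with at least 2 measured arrays in each. This gave 24753 of 55681 probes and 18254 genes, each read at the brightest probe tested. The comparison used limma 3.58.1 (lmFit, eBayes) under R 4.3.3 on all 6 arrays without covariates, with Benjamini-Hochberg adjustment over all genes. The SE given for the ligands is that of a difference of 2 group means, and for other genes that of limma. Raising and lowering of known genes was tested on simulated data. Precision is limited by the small number of arrays, and nothing in the labels shows how far the samples of a genotype shared mice or a day, so p-values measure only the spread between these samples.

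Members, lists and markers were chosen with earlier results of these data known. Named by rule are all members, the deleted genes, list genes past the 2-fold thresholds, the signalling receptors of the members, and the 3 genes nearest in profile to each member that was measured on all 6 arrays and differed by at least 1 log2 unit. Ccl7, Nfkb1, Cxcl11, the atypical receptors, the enzymes and the markers given singly were chosen after their values were seen. Some genes that the rule or the lists cover are not reported here. Names and probe coordinates (mm9) are those of the array files, and all 10 members matched RefSeq by accession. The alternatives were quantile normalization, normexp (offset 50) with quantile normalization or the 75th percentile, scaling on the median, the deposited log2 values, other filters on dim probes, the mean of probes, the methods' t-test, a replicate block and leaving out single arrays.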

Additional observations from a re-analysis of the deposited data

How the results depend on the processing

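Ccl5, Ccl17 and Cx3cl1 were higher in knockout cells under every normalization, filter and block run and without any 1 array. Of these settings, the slide row block rests on control 3 as its only control array. The methods' t-test was run over all genes and the other lists, not for the ligands. The count of ligands past the 2-fold thresholds was 3, between 3 and 4 when 1 array was left out (4 without control 3, which added Ccl4, and 4 without knockout 2, which added Cxcl13 as lower), 2 with normexp and quantile normalization (Cx3cl1 lost), 4 when normexp was joined with the 75th percentile (Ccl4 added), and 5 with no filter on dim probes. Over all genes the count of 644 became 162 with normexp and quantile normalization, 192 when normexp was joined with the 75th percentile, 10640 with no filter, and ranged from 532 to 1113 without 1 array, the highest without knockout 3. The share called higher moved from 64.0% to 46.0% with quantile normalization, 44.6% with the deposited values, 76.9% with scaling on the median, 80.9% and 53.6% with the normexp settings, 97.6% with no filter, 82.3% with detection on all 6 arrays and 46.1% without knockout 2. The 7 genes past the adjusted p became 23 with quantile normalization, 13 and 6484 with normexp and quantile normalization or the 75th percentile, 22 with the deposited values, 2 with no filter, 26 with detection on all 6 arrays, 11 with the mean of probes, 2 with the methods' t-test, 0 with the slide row as a block, and 2 to 92 without 1 array. For the other chemokine ligands the count of 1 became 2 with normexp and the 75th percentile, 2 with scaling on the median, 12 with no filter and 0 with the methods' t-test, and 0 to 4 without 1 array (0 without control 1). For the receptors it became 0 with normexp and quantile normalization, 3 with no filter, and 1 to 2 without 1 array (2 without knockout 1). For the interferon gamma-induced genes it became 0 with normexp and the 75th percentile, 2 with scaling on the median, and 1 to 2 without 1 array. The correlation of deviations between same-numbered arrays was 0.185, 0.056 and 0.094, so the numbers were not taken to pair the samples. The replicate block gave 649 genes past the 2-fold thresholds, 4 past the adjusted p, and the same counts for the ligands (3) and the lists. The slide row was added as a block after the data were seen. The slide as a block was not run, since all arrays lay on 1 slide. The cause of these changes was not tested. Signal near background limits what can be said of Ccl22, Cxcl9, Cxcl10 and Cxcl16.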
